A study of Homo sapiens with 12 samples.

Results

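The ATP-binding cassette (ABC) family was examined in RCH-ACV cells. RCH-ACV is a long-established human line of B-cell precursor acute lymphoblastic leukemia that expresses the pre-B-cell receptor. Its members were all genes whose symbol begins with ABC, a subfamily letter from A to G and a digit. This rule found 41 genes among the 16875 symbols of the RNA-seq tables of 2 clones, 38 of 15612 in clone 1 and 41 of 16848 in clone 2. Dasatinib-resistant sublines of clone 1 and clone 2 had been grown in rising doses, up to 1 µM, of dasatinib, a multi-kinase inhibitor that acts on ABL and the SRC family. Dasatinib-sensitive sublines of clone 1 and clone 2 had been grown in vehicle (0.1% DMSO). RNA was isolated at separate time points and gave 3 libraries for each of the 4 groups, 12 in all. The values are the authors' mean normalized counts over the 6 libraries of a clone, so that resistant and sensitive cells are pooled in every value. A comparison of resistant with sensitive cells was not made here, and the spread between libraries is unknown.

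ABC proteins bind and split ATP with a shared pair of nucleotide-binding domains, and most of them use it to move substrates across a membrane. Subfamilies A and G mainly handle lipids and sterols, though G also holds the multidrug efflux pump ABCG2. B and C hold other multidrug efflux pumps beside mitochondrial, lysosomal and channel-regulating proteins, and D works in peroxisomes and lysosomes. Subfamilies E and F have no membrane part and act at the ribosome. In leukemia the family is best known for efflux pumps that lower the drug content of cells. Dasatinib is a known substrate of P-glycoprotein (ABCB1) and of BCRP (ABCG2).

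Of 45 human family genes that the rule can reach, 39 had a value in at least 1 clone, and the other 2 of the 41 rows were the pseudogenes ABCA11P and ABCA17P. Of these 41, 38 had values in both clones, and ABCA8, ABCA13 and ABCC11 had values in clone 2 only. Over all genes too, clone 2 had more rows, 16848 against 15612 in clone 1. In clone 2, ABCA8, ABCA13 and ABCC11 had 2.07, 1.75 and 1.42, under the lowest value of any gene in clone 1 (2.52). Their lack of a value in clone 1 therefore shows no difference in expression between the clones. ABCB1, ABCB5, ABCB11, ABCC3, ABCC12 and ABCG8 were not analysed here, and nothing is said of their levels. A mean normalized count under 50 was taken as weakly counted. In clone 1, 26 of 38 members reached 50, and in clone 2, 27 of 41 did, which is 68.4% and 65.9%, beside 76.5% and 73.0% of all genes of the tables. The median member had a mean normalized count of 351 in clone 1 and 321 in clone 2, beside medians of 406 and 442 over all genes. The clone 2 median also covers ABCA8, ABCA13 and ABCC11, so the member medians do not compare the clones. In total the members took 1.53 of every 1000 normalized counts in clone 1 and 1.48 in clone 2. In RNA from bulk cultures, fewer cells with a transcript and fewer copies per cell cannot be told apart. The line carried its lineage markers: all 11 B-cell precursor genes on the marker list were at 50 or more, with means between 67.7 (MME, which encodes CD10) and 13087 (RAG1) in clone 1 and between 67.0 (MME) and 13027 (DNTT) in clone 2. Of the 5 myeloid markers, MPO, LYZ and CD14 lay between 2.82 and 11.0 in clone 1 and between 4.06 and 17.1 in clone 2, CSF1R had 615 and 768, and ELANE was not analysed. The stromal gene COL1A1 had 145 in clone 1 and 214 in clone 2, and the other listed markers of T cells, erythroid cells and epithelium were not analysed.

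**Figure D1:**
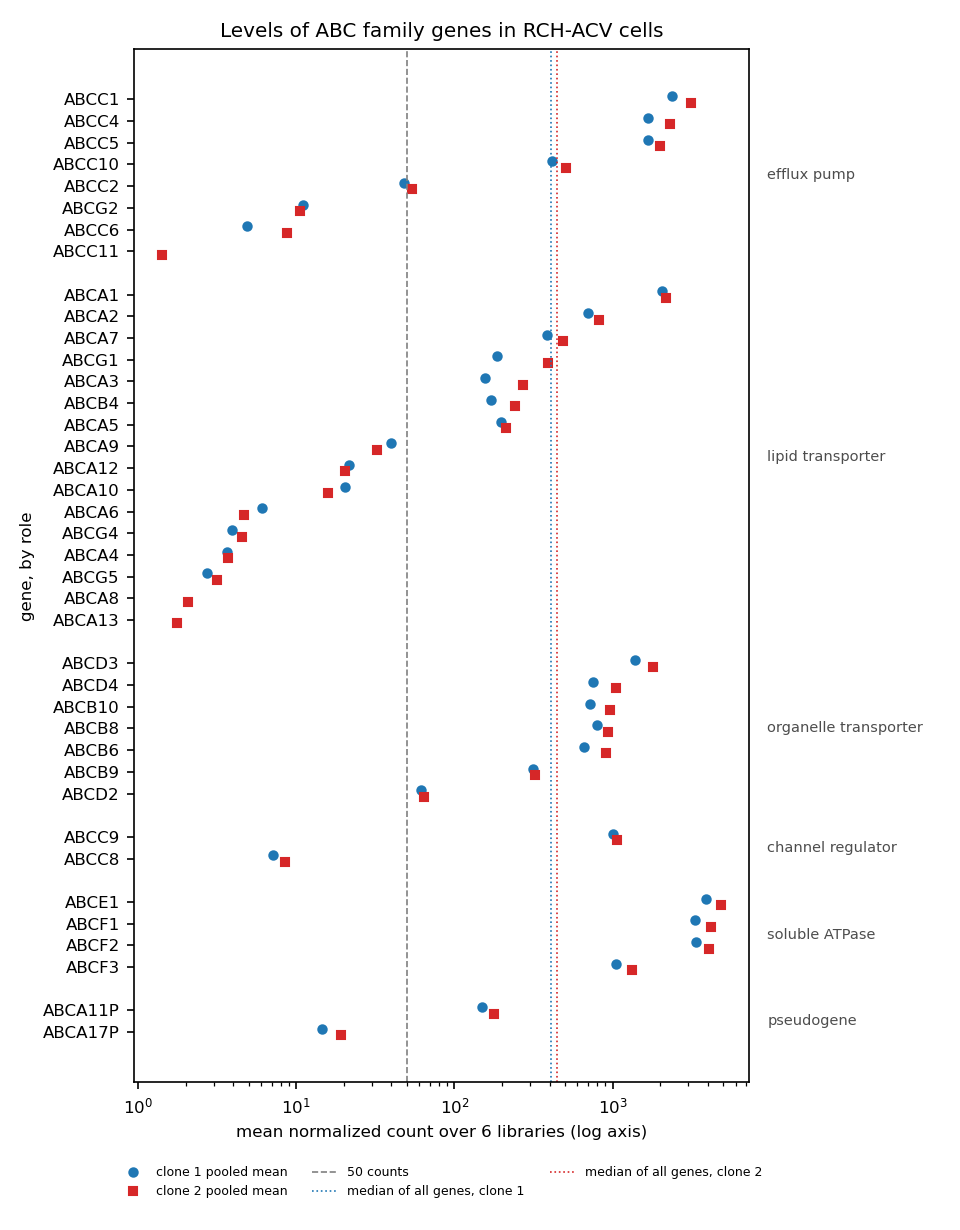
Mean normalized count over the 6 libraries of a clone (x axis, log scale) for 39 of the 41 ABC family genes, grouped by role, with clone 1 as blue circles and clone 2 as red squares. The dashed line marks 50 counts and the dotted lines the medians over all genes (406 in clone 1 and 442 in clone 2); all 4 soluble ATPases lie above these medians, and ABCG2 lies near 11 in both clones.

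Among the efflux pumps with values, almost all transcripts were those of 3 subfamily C exporters. ABCC1, ABCC4 and ABCC5 together made up 92.3% of the summed pump level in clone 1 and 92.8% in clone 2. ABCC1 encodes MRP1, an exporter of glutathione and glucuronide conjugates and of anticancer drugs. Its mean normalized count was 2383 in clone 1 and 3154 in clone 2, above 89.0% and 90.3% of all genes. Divided by coding length, its level was above 61.8% and 64.8% of the genes with a coding length. ABCC4 encodes MRP4, an exporter of cyclic nucleotides and nucleoside analogues, and had 1677 in clone 1 and 2311 in clone 2. ABCC5 encodes MRP5, which has related substrates, and had 1666 in clone 1 and 2010 in clone 2. ABCC10, which encodes the taxane exporter MRP7, stood near the middle of all genes by count, with 414 in clone 1 and 508 in clone 2. Divided by coding length, it was above only 28.1% and 31.7% of the genes with a coding length.

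The other pumps with values were weakly counted or close to it. ABCC2, which encodes MRP2, the exporter of conjugates into bile, had 48.2 in clone 1 and 54.1 in clone 2, and was the member that fell on different sides of 50 in the clones. ABCG2, which encodes the multidrug pump BCRP, had a mean normalized count of 11.0 in clone 1 and 10.5 in clone 2, above 11.1% and 15.5% of all genes. ABCC6, whose loss causes pseudoxanthoma elasticum, had 4.90 in clone 1 and 8.80 in clone 2, and pseudogene copies that are closely similar to it make its counts uncertain. ABCC11, which encodes MRP8, had 1.42 in clone 2 and no value in clone 1. ABCC11 also overlaps LONP2 on the opposite strand, a gene with 2179 in clone 2, and whether the counting used strand is not stated.

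The pooled means set a ceiling on each condition. With 3 resistant and 3 sensitive libraries in a mean that cannot go below 0, the mean of either condition can be at most 2 times the pooled mean. For ABCG2 this ceiling was 22.0 normalized counts in clone 1 and 21.0 in clone 2, which exceed 16.9% and 20.6% of the pooled means of all genes. Thus even if every ABCG2 count had come from one condition, that condition would have stayed under 50. The same held for ABCC6, with ceilings of 9.79 in clone 1 and 17.6 in clone 2, and for ABCC11, with 2.85 in clone 2. The ceiling of ABCC2 was 96.4 in clone 1 and 108 in clone 2, so a mean over 50 in either condition is possible. For ABCC1 the ceiling was 4767 in clone 1 and 6307 in clone 2. The ceiling limits the level only. For every member, ABCG2 among them, it leaves room for changes of any size and direction between resistant and sensitive cells. These means cannot show such changes. The bound rests on the deposited column, headed baseMean as in DESeq2 output, being the plain mean of the 6 libraries listed for a clone, and it carries no counting or replicate error.

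**Figure D2:**
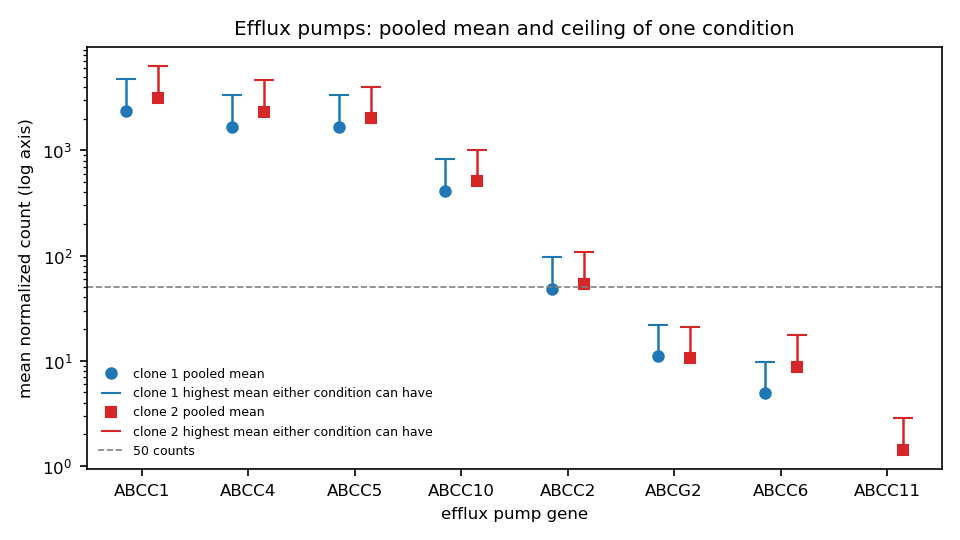
Pooled mean normalized count (blue circles for clone 1, red squares for clone 2, log axis) of the 8 efflux pump genes with values, with a line up to the highest mean that either condition could have, 2 times the pooled mean. For ABCG2 the line ends at 22.0 and 21.0, under the dashed line at 50, whereas ABCC1, ABCC4, ABCC5 and ABCC10 start above it.

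Levels of different genes were compared per 1000 coding bases, because longer transcripts give more fragments. The coding length was that of the longest coding sequence in GENCODE release 29, matched by symbol for 86.3% of the genes of clone 1 and 85.3% of those of clone 2. On this scale ABCC1 had 519 counts per 1000 coding bases in clone 1 and 687 in clone 2, against 5.60 and 5.35 for ABCG2, a ratio of 92.7 in clone 1 and 128 in clone 2. The highest member was ABCE1, with 2172 in clone 1 and 2695 in clone 2, above 89.5% and 89.8% of the genes with a coding length. ABCE1 overlaps OTUD4 and ANAPC10 on the opposite strand, and whether the counting used strand is not stated. OTUD4 had a mean normalized count of 2176 in clone 1 and 2574 in clone 2, and ANAPC10 had 379 and 453. After ABCE1 came ABCF2, ABCF1, ABCD3 and ABCC1 in both clones. The median member had 93.8 counts per 1000 coding bases in clone 1 and 111 in clone 2, beside 331 and 371 over all genes with a coding length. The members fell into size classes. The 17 with a coding length under 3000 bases (1797 to 2535) had a median of 326 in clone 1 and 427 in clone 2, and 14 of them reached 50 counts in each clone. Among the longer members (from 3858 bases), 11 of 19 reached 50 counts in clone 1 and 12 of 22 in clone 2, with medians of 40.1 and 27.3 counts per 1000 coding bases. In clone 2 this median and that of all members also cover ABCA8, ABCA13 and ABCC11, at 0.425, 0.116 and 0.343. Neither median therefore compares the clones. Shares and medians over all genes of the same coding lengths were not computed. The contrast of the size classes is therefore not shown to be particular to the family. The classes also go with role, since all soluble ATPases and organelle transporters were among the shorter members.

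**Figure D3:**
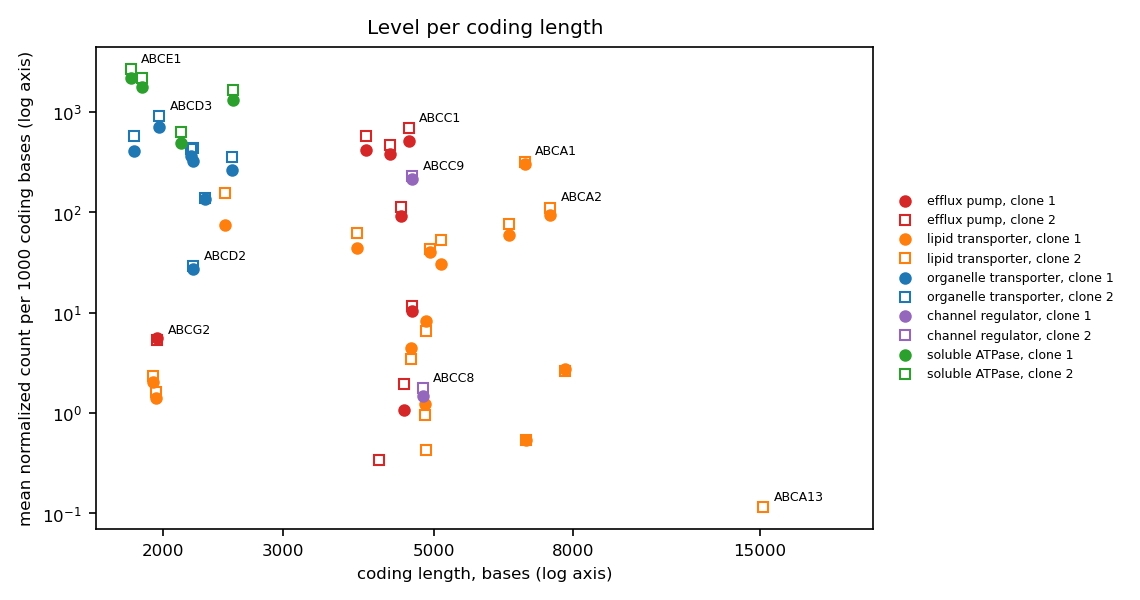
Mean normalized count per 1000 coding bases (y axis) against coding length in bases (x axis, both log scales) for members with a coding length, colored by role, with filled circles for clone 1 and open squares for clone 2. ABCE1 is highest at 2172 and 2695, ABCC1 has 519 and 687, and ABCG2, with a similarly short coding length to ABCE1, has 5.60 and 5.35.

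The soluble members carried the largest share of the family's counts. The 4 genes of subfamilies E and F made up 39.9% of the summed level in clone 1 and 39.7% in clone 2, and all of them were above the median of all genes. ABCE1, the factor that splits ribosomes for recycling, had a mean normalized count of 3903 in clone 1 and 4842 in clone 2. ABCF1, a ribosome-associated translation factor, had 3347 in clone 1 and 4220 in clone 2. ABCF2, a soluble relative, had 3348 in clone 1 and 4047 in clone 2. ABCF3 was lower, with 1048 in clone 1 and 1335 in clone 2. The microRNA gene MIR877 lies within ABCF1 on the same strand and had only 7.24 and 6.46. Partner genes of this group were also well counted: GCN1, which activates the kinase GCN2, had 5001 in clone 1 and 6597 in clone 2, and EIF2AK4, which encodes GCN2 itself, had 1556 and 2003. PELO and HBS1L form a complex that rescues stalled ribosomes together with ABCE1. PELO had 408 in clone 1 and 525 in clone 2, and HBS1L had 1589 in clone 1 and 1869 in clone 2.

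All 9 organelle transporters were counted at 50 or more in both clones. ABCB6, ABCB8, ABCB10, ABCD3 and ABCD4 lay between 663 and 1391 mean normalized counts in clone 1 and between 912 and 1804 in clone 2. Per 1000 coding bases they ranged from 262 to 704 in clone 1 and from 361 to 912 in clone 2. ABCD2 and ABCB9, given below, were lower. ABCD3, the abundant peroxisomal membrane protein PMP70, was the highest with 1391 in clone 1 and 1804 in clone 2. ABCD2, a peroxisomal importer of long fatty acids, had only 61.3 in clone 1 and 64.5 in clone 2, and per 1000 coding bases the level of ABCD3 was 25.5 times that of ABCD2 in clone 1 and 31.4 times in clone 2. ABCD4, a lysosomal protein needed for the release of cobalamin, had 752 in clone 1 and 1047 in clone 2. LMBRD1, its partner in the lysosomal membrane, had 180 in clone 1 and 279 in clone 2. Of the factors that insert peroxisomal membrane proteins, PEX19 had 1047 in clone 1 and 1381 in clone 2, and PEX3 had 202 in clone 1 and 249 in clone 2.

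Mitochondrial members of subfamily B were of similar level to each other. ABCB8 had 797 in clone 1 and 943 in clone 2, and ABCB10, needed for heme synthesis, had 722 in clone 1 and 963 in clone 2. ABCB6, linked to porphyrin transport, had 663 in clone 1 and 912 in clone 2. Since the spread between libraries is unknown, these 3 cannot be put in an order. Genes of iron-sulfur and heme synthesis from the partner list were all counted at 50 or more, with means from 496 (FECH) to 2551 (GLRX5) in clone 1 and from 569 (NFS1) to 2854 (GLRX5) in clone 2. ABCB9, a lysosomal peptide transporter, had 316 in clone 1 and 321 in clone 2, and overlaps the better counted genes ARL6IP4 and OGFOD2 on the opposite strand. Its close relatives TAP1 and TAP2 are ABC proteins that the symbol rule does not reach and that pump peptides to MHC class I. TAP1 had 744 in clone 1 and 1108 in clone 2, and TAP2 had 1790 in clone 1 and 2314 in clone 2. CFTR, the other family gene under its own name, was not analysed.

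Lipid transporters were split between well and weakly counted genes, with 7 of 14 members at 50 or more in clone 1 and 7 of 16 in clone 2. ABCA1, which hands cholesterol and phospholipid to apolipoprotein A-I, stood above the others with 2053 in clone 1 and 2182 in clone 2. Per 1000 coding bases it had 303 in clone 1 and 322 in clone 2, above 47.9% and 47.0% of genes. ABCA2, an endosomal and lysosomal lipid transporter, had 703 in clone 1 and 824 in clone 2. ABCA7, a phospholipid transporter linked to Alzheimer disease risk, had 386 in clone 1 and 489 in clone 2. ABCG1, which exports cholesterol to HDL, had 187 in clone 1 and 390 in clone 2. NR1H2 and NR1H3 encode the LXR receptors that induce ABCA1 and ABCG1 in other cells. NR1H2 had 740 in clone 1 and 902 in clone 2, and NR1H3 had 162 in clone 1 and 206 in clone 2. SREBF2, the master regulator of cholesterol synthesis, had 4976 in clone 1 and 5926 in clone 2.

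Of the lipid transporters best known from single tissues, some were weakly counted and others were not. ABCA4, the retinal flippase, had 3.67 in clone 1 and 3.68 in clone 2. ABCA12, the epidermal transporter, had 21.6 in clone 1 and 20.4 in clone 2. ABCG4 had 3.93 in clone 1 and 4.51 in clone 2, and ABCG5, a sterol exporter of gut and liver, had 2.74 in clone 1 and 3.15 in clone 2. ABCA13, whose coding length of 15174 bases is the longest of the family, had 1.75 in clone 2. The genes ABCA8, ABCA9, ABCA6, ABCA10 and ABCA5 lie side by side on chromosome 17 and on the same strand. ABCA5, at the end of this row, had 197 in clone 1 and 211 in clone 2. ABCA9 had 39.9 in clone 1 and 32.3 in clone 2, ABCA10 had 20.4 and 15.9, ABCA6 had 6.04 and 4.67, and ABCA8 had 2.07 in clone 2. ABCA5 and ABCA10 overlap on the same strand, so the counts of ABCA10 are uncertain. ABCA3, which loads lung surfactant lipid, had 156 in clone 1 and 270 in clone 2, and the pseudogene ABCA17P on its opposite strand had 14.6 and 19.1. The pseudogene ABCA11P had 150 in clone 1 and 178 in clone 2 and overlaps ZNF721, with 415 and 507, on the same strand. ABCB4, the phosphatidylcholine floppase of bile, had 170 in clone 1 and 241 in clone 2.

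Of the sulfonylurea receptors, which gate ATP-sensitive potassium channels, ABCC9 was well counted and ABCC8 was not. ABCC9, which encodes SUR2, had a mean normalized count of 1008 in clone 1 and 1062 in clone 2. ABCC8, which encodes SUR1, had 7.11 in clone 1 and 8.48 in clone 2. Per 1000 coding bases the level of ABCC9 was 147 times that of ABCC8 in clone 1 and 130 times in clone 2. The pore gene KCNJ11, which neighbors ABCC8, had 53.1 in clone 1 and 77.3 in clone 2, and KCNJ8, which neighbors ABCC9, was not analysed. Of the 26 partner and related genes listed, 24 had values and 23 reached 50 in each clone.

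The DNA around the starts of the members was compared by its number of CpG dinucleotides. RefSeq promoter windows (GRCh38.p14, 250 bases before to 50 after a start) were found for 31 of the 41 members, and for genes with several starts the window with the most CpG was taken. The other 10, among them ABCC1 and ABCG1, had no window. At least 15 CpG were present in 19 of 21 members at 50 or more in a clone (90.5%), and in 4 of 10 members under 50 (40.0%). Over all genes with values these shares were 88.1% and 52.9%, so that the share of members at 50 or more is near the background. The median number of CpG was 29 in the first group of members and 6 in the second, beside 28 and 17 over all genes. The letters GGGCGG, read on both strands, were found in 18 of 21 members at 50 or more (85.7%) and in 3 of 10 under 50 (30.0%), beside 76.8% and 54.8% of all genes with values and 48.3% of all genes with a window. The minimum of 15 was chosen after the values were seen. The exceptions among the members at 50 or more in a clone were ABCC2 with 1 CpG and ABCD2 with 8. These 2 were also the lowest of that group in level, and ABCC2 reached 50 in clone 2 only. The other way round, the weakly counted members ABCG2, ABCC6, ABCC11 and ABCG4 had a start with 35, 29, 28 and 28 CpG. Of the pumps with a window, ABCC4 had the most CpG (47) and ABCC2 the fewest, while among all members ABCA2 had the most (66). The 250 bases before the starts of ABCC4 and ABCC2 are given 5′ to 3′ on the gene's strand with each CpG in capitals, ABCC4 from chr13:95301452-95301701 (minus strand) and ABCC2 from chr10:99782390-99782639 (plus strand).
ABCC4: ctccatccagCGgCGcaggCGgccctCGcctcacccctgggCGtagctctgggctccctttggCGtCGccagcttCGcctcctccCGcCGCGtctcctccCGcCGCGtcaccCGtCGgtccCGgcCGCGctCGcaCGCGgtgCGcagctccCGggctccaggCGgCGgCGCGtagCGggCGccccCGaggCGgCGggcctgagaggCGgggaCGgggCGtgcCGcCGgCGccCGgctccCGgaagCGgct
ABCC2: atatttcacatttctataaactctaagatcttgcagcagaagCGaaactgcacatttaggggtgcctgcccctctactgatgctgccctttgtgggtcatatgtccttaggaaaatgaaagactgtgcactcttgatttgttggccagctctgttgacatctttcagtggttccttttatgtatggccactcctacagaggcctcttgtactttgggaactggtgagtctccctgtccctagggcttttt
The ABCC4 stretch holds 42 CpG at a GC content of 80.4%, and the ABCC2 stretch holds 1 at 45.6%. In level, ABCC4 had 1677 in clone 1 and 2311 in clone 2, and ABCC2 had 48.2 in clone 1 and 54.1 in clone 2. Neither stretch contains GGGCGG on either strand, which says nothing of the factors that bind there.

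The levels of the family were also set side by side between the clones. Each clone has 1 pooled mean per gene, and the tables were normalized separately. The library titles carry the letter A in clone 1 and B in clone 2, whose meaning is not stated. Ratios of clone 1 over clone 2 were therefore centred on the median over all genes at 50 or more in both clones, where clone 2 was 1.29 times clone 1, and no test was possible. Of 27 members at 50 or more in either clone, none was past 2-fold in either direction. Over all 12346 genes compared in this way, 0.567% were past 2-fold higher in clone 1 and 0.786% past 2-fold lower, so that a count of 0 among 27 is near the background. The median log2 ratio of the members was 0.05, beside -0.0030 over all genes. Within 0.25 of 0 on the log2 scale lay 20 of the 27 members (74.1%) and 85.0% of all genes compared. Between the lower and upper quartiles of all genes compared lay 11 of the 27 members. By these measures the members were not closer between the clones than genes in general. The 4 soluble ATPases had log2 ratios between 0.02 and 0.10, and the 5 pumps between -0.09 (ABCC4) and 0.20 (ABCC2).

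A pair of lipid transporters stood lowest. ABCG1, with 187 counts in clone 1 and 390 in clone 2, had a log2 ratio of -0.69, and 1.53% of all genes compared had a lower one. ABCA3, with 156 in clone 1 and 270 in clone 2, had -0.42, with 3.64% of genes lower. At the other end, ABCB9 had 0.34, ABCD2 0.30, ABCC9 0.29, ABCA1 0.28 and ABCA5 0.27, each above 94.1% or more of all genes. The cholesterol exporters ABCA1 and ABCG1 thus lay on opposite sides of the median over all genes. These signs are relative to that median, since without centring all 27 members were lower in clone 1, ABCA1 at -0.09 and ABCG1 at -1.06. Their LXR regulators NR1H2 and NR1H3 had log2 ratios of 0.08 and 0.03. Among weakly counted members, ABCA9, ABCA6 and ABCA10, the neighbors on chromosome 17, had 0.67, 0.74 and 0.73, at means of at most 39.9. Most other weakly counted members with values in both clones were also above 0, up to 0.45 (ABCA12). Only ABCC6 (-0.48) and ABCA17P (-0.01) were below. Whether any of these differences exceeds the spread between libraries was not tested. Differences between the clones cannot be told apart from any difference that goes with the letters A and B of the library titles. Since each mean pools resistant and sensitive cells, a ratio also cannot be assigned to either condition.

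**Figure D4:**
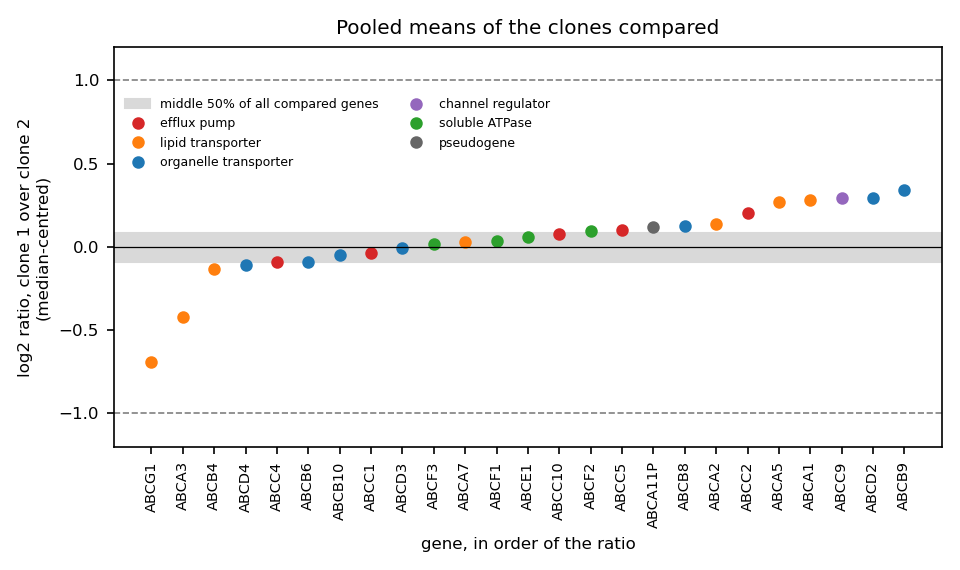
Median-centred log2 ratio of the pooled means, clone 1 over clone 2 (y axis), for 25 of the 27 members at 50 or more counts in either clone, in order of the ratio and colored by role. The grey band runs from the lower to the upper quartile of all genes compared (-0.09 to 0.09) and the dashed lines mark 2-fold; ABCG1 at -0.69 and ABCA3 at -0.42 lie farthest below and ABCB9 at 0.34 farthest above, and without centring all 27 lie below 0.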

How the data were processed

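RNA-seq of 12 libraries was analysed from 2 tables, 1 per clone. Per the labels, RNA from a spin-column extraction went into a strand-specific mRNA library kit. DESeq2, BWA (versions 0.7.7-r441 and 0.6.2-r126), FastQC 0.10.1, bedtools 2.19.0, Picard 1.107, SAMtools and the build hg19 are listed in the submitters' processing notes, with no role for any of them. Which annotation, counter and strand setting were used is not given in the sources used here. The only column used is a signal that the authors deposited: it is headed baseMean, which in DESeq2 output is the mean of counts divided by size factors, here taken to run over a clone's 6 libraries. The other deposited columns hold the authors' own comparison of resistant with sensitive cells (log2 fold change, standard error, statistic, p-values and direction) and were not used, so that no comparison of these groups, SD or test was computed. The depth of single libraries is unknown. The deposited means sum to 19108037 in clone 1 and 24561485 in clone 2, and no value lies below 2.52 and 1.13. Calendar dates stood in place of 21 and 22 symbols, and 2 rows per table that share a symbol were left out of joins.

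Members were found by symbol and grouped by a role list. All pumps, the leading members of the other roles and all weakly counted members were to be named. A few items that this rule or the lists would name, 2 members among them, are not reported here. Members, lists and thresholds were chosen with earlier results of these data known. Lengths came from GENCODE release 29 (GRCh38) in place of RefSeq proteins, which were not used here, and promoters from RefSeq. Python 3.11.15, pandas 2.3.3 and scipy 1.17.1 were used. The calculation of the clone ratio was checked on simulated means, which is no test of the ratios themselves. Alternatives were other minimum counts (20 and 100), centrings, lengths and member sets.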

Additional observations from a re-analysis of the deposited data

How the results depend on the processing

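The number of members at the minimum count moved little, to 30 and 29 with a minimum of 20, to 25 and 25 with a minimum of 100, and to 27 and 26 with both tables scaled to the same total (clone 1 and clone 2). Without centring, 1 member, ABCG1, was past 2-fold lower in clone 1, against 0 with centring, the median log2 ratio of the 27 members was -0.32, and all 27 were below 0, ABCA1 at -0.09. With centring by table totals, with all members in both tables, or with 100 counts in either table, the number stayed at 0. Of the first 10 members per coding length, 8 in each clone were also among the first 10 by count, and 10 in clone 1 and 9 in clone 2 by longest transcript. Leaving out the pseudogenes gave soluble ATPases 40.2% and 39.9% of the summed level. No paired analysis was possible because the deposited means pool the libraries of a clone, and for the same reason no replicate could be left out. For weakly counted members, such as ABCG2, few counts stand behind each value, and the depth of single libraries is unknown.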
